A study of Mus musculus with 18 samples.

Results

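The miRNAs described here are the family that shares the seed of miR-17 (miR-17, miR-20a, miR-20b, miR-93, miR-106a and miR-106b) and miR-18a. They were taken from the table by name, with the estimated reads of each summed over the libraries, and were chosen by family and hairpin with their IP and input reads in these libraries already known. Of 1907 mature miRNAs listed, 1232 of them with a read, 10 are members. The 6 seed-family members are miR-17-5p, miR-20a-5p, miR-20b-5p, miR-93-5p, miR-106a-5p and miR-106b-5p. The others are miR-18a-5p, a neighbour in the same cluster, and miR-17-3p, miR-20a-3p and miR-93-3p, the opposite strands of 3 of the hairpins. All 10 members had reads, with totals from 97 for mmu-miR-20a-3p and 177.5 for mmu-miR-106a-5p to 32173 for mmu-miR-17-5p, 71365 for mmu-miR-93-5p and 183028 for mmu-miR-20a-5p (the mouse prefix mmu is left out from here on).

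The libraries came from NIH/3T3, a mouse embryonic fibroblast line. Cells were WT or had Pus1, which encodes a pseudouridine (Ψ) synthase, knocked down for 3 days (Pus1 KD day 3) or 6 days (Pus1 KD day 6). In each of the 3 conditions, the small RNA fraction was sequenced as input and as the fraction bound by an antibody against Ψ, an isomer of uridine (IP), with 3 replicates (A, B and C) per group and 18 libraries in all. The labels name no control treatment for WT cells and do not say whether replicates were separate cultures, so p-values measure the spread between these libraries, which may be technical, and since the table covers miRNAs only, the knockdown could not be checked.

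miR-17, miR-18a and miR-20a are cut from one primary transcript, the miR-17~92 cluster, known for its action in proliferating cells and in tumours. miR-106b and miR-93 belong to a paralogous cluster inside Mcm7, and miR-106a and miR-20b to another cluster on the X chromosome. A miRNA recognises its targets mainly through the seed at its 5′ end, so the 6 family members are expected to share many targets, whereas the 3p strands carry other seeds.

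The mature sequences are shown because the members that behaved differently in the Ψ-IP differ by only a few bases. They are taken from RefSeq (GRCm38.p6, the assembly also named mm10), which matched all 10 members, and run 5′ to 3′ with the seed, bases 2 to 8, in capitals.
mmu-miR-17-5p: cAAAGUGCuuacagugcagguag
mmu-miR-20a-5p: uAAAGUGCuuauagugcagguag
mmu-miR-20b-5p: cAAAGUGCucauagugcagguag
mmu-miR-106a-5p: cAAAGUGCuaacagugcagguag
mmu-miR-93-5p: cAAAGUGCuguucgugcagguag
mmu-miR-106b-5p: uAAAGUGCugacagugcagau
mmu-miR-18a-5p: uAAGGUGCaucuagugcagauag
mmu-miR-17-3p: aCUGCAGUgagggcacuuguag
mmu-miR-20a-3p: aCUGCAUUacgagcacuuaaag
mmu-miR-93-3p: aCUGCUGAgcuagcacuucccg

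The 6 family members had the seed AAAGUGC and miR-18a-5p had AAGGUGC. Counted from 1 at the 5′ end, miR-20a-5p differed from miR-17-5p by C1U and C12U (miR-17-5p base first), with 21 of 23 bases identical. miR-106a-5p differed from miR-17-5p by U10A alone, and miR-20b-5p from miR-20a-5p by U1C and U10C. miR-20a-5p held 7 uridines, miR-93-5p and miR-18a-5p 6, miR-17-5p, miR-20b-5p and miR-106b-5p 5, and miR-106a-5p 4. The 3p strands of miR-17, miR-20a and miR-93 each held 5. miR-6383, the other listed mouse miRNA with this seed, had no read in any library.

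In GENCODE M21, also on GRCm38, Mir17 (chr14:115043671-115043754), Mir18 (chr14:115043851-115043946) and Mir20a (chr14:115044157-115044263) lie on the plus strand in an exon of the lincRNA gene Mir17hg. Mir106b (chr5:138165737-138165818) lies in an intron of Mcm7, a protein-coding gene of DNA replication, on the minus strand. Mir93 (chr5:138165523-138165610) overlaps an annotated exon of a Mcm7 transcript on the same strand. Mir106a (chrX:52742503-52742567) and Mir20b (chrX:52742113-52742192) lie on the minus strand in no annotated host gene.

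Depth ranged from 3989031 to 15099781 mapped reads in 17 libraries, while replicate A of the Pus1 KD day 6 input had 241109 and stands apart. That input held 102 reads of miR-20a-5p and 23 of miR-17-5p, so for several members the day 6 log2 ratio is also given without it. Day 6 means of read ratios and shares include it. Reads outside miRNA rows made up 5.47% to 9.96% of mapped reads in the inputs and 14.8% to 38.2% in the IPs. Markers of mesenchymal cells were abundant in the inputs (miR-21a-5p, a median of 359423 RPM, reads scaled to 1000000 miRNA reads without factors, then miR-143-3p at 80767 and miR-199a-3p at 12889.8). Defining miRNAs of neurons (miR-124-3p), blood cells (miR-142a-3p) and embryonic stem cells (miR-302a-3p and miR-294-3p) had a median of 0. The epithelial miR-200c-3p had a median of 0.720 and the liver miR-122-5p one of 30.8.

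Levels are CPM, counts scaled to a library of 1000000 miRNA reads with TMM factors. In the WT input, the leading family member was miR-20a-5p at 1468 ± 10.5 CPM (SD, n = 3), followed by miR-93-5p at 982 ± 22.2, miR-17-5p at 406 ± 4.25 and miR-106b-5p at 153 ± 24.2. These neighbours in the order differed by more than their spread. miR-18a-5p stood at 54.1 ± 9.16 CPM and miR-17-3p at 24.0 ± 6.67, and miR-93-3p at 13.6 ± 1.24. The X-linked members were near the limit of detection, with miR-20b-5p at 2.96 ± 0.461 CPM and miR-106a-5p at 2.44 ± 0.284, which overlap, and miR-20a-3p was at 1.82 ± 1.02. Together the 6 family members took 0.257% ± 0.00600 of all WT input reads of miRNAs.

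miR-20b-5p and miR-106a-5p may also hold reads of their abundant near-copies, as the deposited counts appear to split reads that match several miRNAs. miR-20b-5p read counts were 0% to 0.235% of those of miR-20a-5p in the inputs and 0.0803% to 0.226% in the IPs. Those of miR-106a-5p were 0% to 0.834% of miR-17-5p in the inputs and 0% to 2.03% in the IPs. Both miR-20b-5p and miR-106a-5p are therefore reported as uncertain. Their opposite strands, miR-20b-3p and miR-106a-3p, were at 0 in every library, but few such reads could arise at these counts. In the WT input, 3p reads were a mean of 0.124% of miR-20a reads and 5.57% of miR-17 reads. Of the non-zero values of these 2 members, 88.2% and 93.3% were not whole numbers. That share does not set them apart, as it was 94.4% for miR-20a-5p and 83.3% for miR-17-5p.

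**Figure D1:**
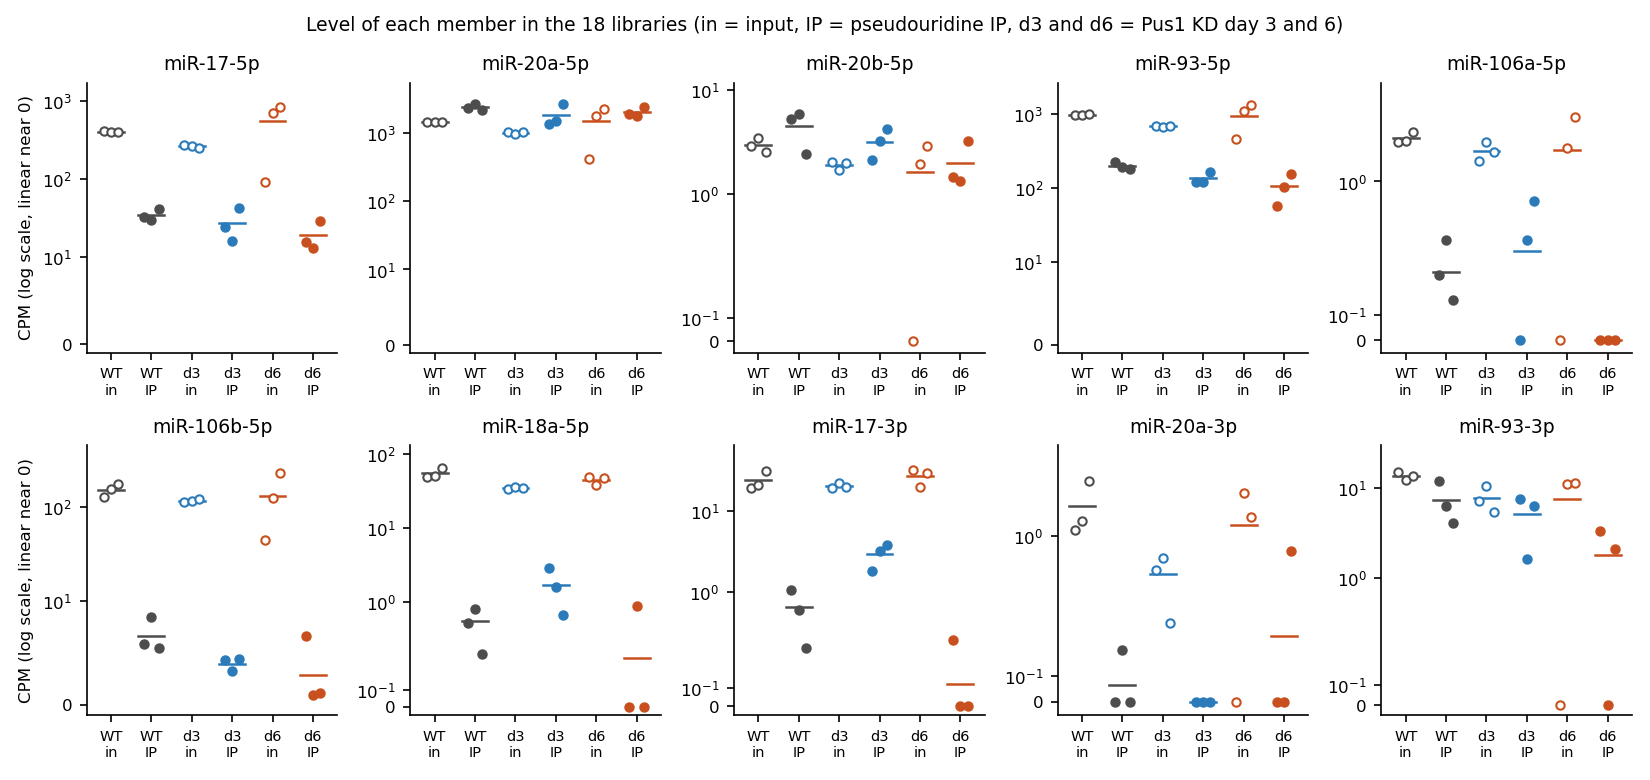
Level of each of the 10 members in CPM (y axis, log scale that turns linear near 0 and differs between panels) in the 6 groups of libraries (x axis). Open circles are inputs, filled circles are IPs, in the order A, B, C, and bars are means of 3 replicates. For miR-17-5p, miR-93-5p, miR-106b-5p, miR-18a-5p and miR-17-3p all 9 IPs lie below all 9 inputs, whereas miR-20a-5p stays between 1359.8 and 2727 CPM in the IPs.

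The first question was which members the Ψ antibody brought down relative to input. In WT cells, most of the family was depleted from the IP, and miR-20a-5p and the low-count miR-20b-5p were not. Of the 9 members that passed the filter on low counts (miR-20a-3p did not), 6 were lower in the WT IP and 0 were higher. Among all 534 miRNAs tested, 40.4% were called lower and 26.2% higher, and the median log2 ratio was −3.09 over the 9 members and −0.35 over all miRNAs. In Pus1 KD day 3 cells, 6 members were lower (39% of all miRNAs) and miR-20a-5p was higher (28.1%). In Pus1 KD day 6 cells, 7 members were lower (37.6%) and 0 higher (31.1%). The 6 members lower in all 3 conditions were miR-17-5p, miR-93-5p, miR-106a-5p, miR-106b-5p, miR-18a-5p and miR-17-3p, and miR-93-3p was lower on day 6. The members were chosen with IP results of these libraries known, and same-seed members share sequence, so these counts are a description.

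The size of each IP to input ratio depends on how libraries are scaled. The median log2 ratio of all miRNAs in WT cells was −0.35 with TMM factors, −0.02 with RLE factors and 0.38 with upper-quartile factors, and 0.46 to 0.52 with TMM factors after any of 5 single inputs (WT C, Pus1 KD day 3 A or C, or Pus1 KD day 6 B or C) was left out. With upper-quartile factors, 57.7%, 57.8% and 59.1% of calls were higher in WT, day 3 and day 6 IPs, against 39.3%, 41.9% and 45.2% with TMM, and with total mapped reads 27.7% were higher on day 6. Members are therefore also given relative to the median of all miRNAs.

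miR-17-5p, a founding member of the cluster's family, stood at 411, 404 and 403 CPM in WT input replicates A, B and C and at 32.4, 30.2 and 42.1 CPM in the WT IPs. It stood at 277, 268 and 249.6 CPM in the Pus1 KD day 3 inputs and at 24.3, 16.03 and 43.4 in the IPs. On day 6 its inputs were at 93.5, 708 and 854 CPM and its IPs at 15.7, 13.0 and 29.5. Every IP was lower than every input, and the low day 6 input was the shallow replicate A. The log2 IP to input ratio was −3.54 ± 0.50 (SE) in WT (edgeR adjusted p = 3.16e-06), −3.21 ± 0.50 on day 3 (adjusted p = 1.09e-05) and −4.83 ± 0.54 on day 6 (adjusted p = 1.07e-07). Relative to the median of all miRNAs these were −3.19, −2.96 and −4.55. When the shallow input was left out, the day 6 log2 ratio was −5.46.

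miR-20a-5p lies downstream of miR-17 in the same transcript and behaved otherwise. It stood at 1480.2, 1461 and 1464 CPM in the WT inputs and at 2378, 2727 and 2176 CPM in the WT IPs. The Pus1 KD day 3 inputs were at 1029, 985 and 1028 CPM and the IPs at 1359.8, 1499 and 2639, so that in both conditions all IPs lay above all inputs. On day 6 the inputs, at 415, 1766 and 2275 CPM, overlapped the IPs, at 1917, 1784 and 2437. The log2 ratio was 0.73 ± 0.36 in WT (edgeR adjusted p = 0.083), 0.85 ± 0.36 on day 3 (adjusted p = 0.0436) and 0.45 ± 0.36 on day 6 (adjusted p = 0.272).

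Whether miR-20a-5p was called depended on the scaling, and its place among all miRNAs less so. Relative to the median of all miRNAs its log2 ratio was 1.07 in WT, 1.10 on day 3 and 0.73 on day 6. Over 29 alternative settings this relative value ran from 0.71 to 1.18 in WT, from 0.75 to 1.19 on day 3 and from 0.10 to 1.00 on day 6. miR-20a-5p was called higher in 19, 17 and 9 of the 29. With DESeq2 it was higher in all 3 conditions, by 1.06, 1.10 and 0.79 on the log2 scale (adjusted p = 0.00166, 0.00101 and 0.0194). The day 3 call was lost in 12 of the 29, with the lowest value when the day 3 IP lacked replicate C, at 0.28 on the log2 scale (edgeR adjusted p = 0.458). On day 6 the sign itself turned in 4 settings, and without the shallow input the log2 ratio was −0.18 (edgeR adjusted p = 0.527).

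miR-93-5p, the second most abundant member, was lower in every IP than in any input. Its WT inputs were at 986, 958 and 1001 CPM and the WT IPs at 225, 194 and 179.8. It stood at 696, 675 and 689 CPM in the day 3 inputs and 120.1, 123 and 168 in the IPs, and at 455, 1086 and 1314 CPM in the day 6 inputs and 57.0, 104 and 156 in the IPs. The log2 ratio was −2.30 ± 0.33, −2.32 ± 0.33 and −3.18 ± 0.34 (edgeR adjusted p = 3.19e-06, 3.35e-06 and 5.71e-08). The day 6 value was −3.68 without the shallow input.

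miR-106b-5p, from the same Mcm7 hairpin cluster, was depleted further. It fell from 128, 153 and 176 CPM in the WT inputs to 5.79, 8.45 and 5.45 CPM in the WT IPs, and from 114, 115 and 122 to 4.29, 3.21 and 4.34 on day 3. On day 6 the inputs were at 44.7, 124 and 228 CPM and the IPs at 6.58, 0.895 and 1.13, the last 2 from 2 and 6 reads. The log2 ratio was −4.54 ± 0.47, −4.86 ± 0.50 and −5.71 ± 0.54 (edgeR adjusted p = 4.63e-08, 4.90e-08 and 1.08e-08). The day 6 value was −6.25 without the shallow input. Every IP was below every input.

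miR-18a-5p, which differs from miR-17-5p within the seed by A4G, was among the most depleted of all miRNAs tested, ranking 9th lowest of 534 in WT, 44th on day 3 and 12th on day 6. Its WT inputs held 385, 516 and 584 reads and its WT IPs 2, 4 and 2. The day 3 inputs held 392, 376 and 223 reads and the IPs 8, 4 and 4, and the day 6 inputs held 12, 212 and 451 and the IPs 0, 2 and 0. The log2 ratio was −6.60 ± 0.47 in WT and −4.48 ± 0.43 on day 3 (edgeR adjusted p = 1.93e-10 and 1.81e-08). For day 6, counts pooled over the libraries (675 against 2) and scaled by library size were 225-fold higher in input, with an exact 95% counting interval of 61.9 to 1858. Fitted ratios at such counts depend on the prior count added by the fit, and this interval covers counting error only.

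The 3 strands opposite the family members had low counts. miR-17-3p held 156, 217 and 286 reads in the WT inputs and 4, 3 and 2 in the WT IPs, a log2 ratio of −5.25 ± 0.45 (edgeR adjusted p = 2.84e-09). In day 3 cells it held 228, 238 and 132 reads in input and 5, 8 and 23 in IP, at −2.74 ± 0.37 (adjusted p = 2.09e-06). In day 6 cells it held 8, 110 and 279 in input and 1, 0 and 0 in IP, a pooled input to IP ratio of 264 with a counting interval of 47.1 to 10461. Every IP level was below every input level. miR-93-3p held 118, 128 and 123 reads in the WT inputs and 45, 31 and 25 in the IPs, a log2 ratio of −0.91 ± 0.50 that did not pass the test (edgeR adjusted p = 0.116). Its value was −0.55 ± 0.53 on day 3 (adjusted p = 0.369), and it was lower in the day 6 IP at −2.40 ± 0.64 (adjusted p = 0.00237). The day 6 value was −2.72 without the shallow input. The day 6 call was lost in a fit of the libraries compared alone (−1.77, edgeR adjusted p = 0.0786) and without replicate C of the day 6 input (−1.69, adjusted p = 0.0511), and the WT value passed without replicate A of the WT IP (−1.44, adjusted p = 0.0298).

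miR-20a-3p, not tested for its low counts, held 9, 14 and 27 reads in the WT inputs and 0, 1 and 0 in the IPs, a pooled ratio of 27.4 with an interval of 4.69 to 1102. On day 3 it held 6, 7 and 2 reads in input and none in IP. That was 1.95-fold lower at a floor of 3 counts over the group, and the interval began at 1.40-fold. On day 6 the inputs held 0, 13 and 14 reads and the IPs 0, 0 and 4. Without the shallow day 6 input it passed the filter and was lower at −2.47 (edgeR adjusted p = 0.0419).

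The X-linked pair had few reads. miR-106a-5p, a single base from miR-17-5p, held 18, 24 and 25 reads in the WT inputs and 1, 2 and 1 in the IPs, a log2 ratio of −3.09 ± 0.70 (edgeR adjusted p = 0.000707). On day 3 its ratio was −2.09 ± 0.70 (adjusted p = 0.0134), a call lost under 7 alternatives, namely DESeq2, upper-quartile factors and the leaving out of single inputs. Its day 6 reads rounded to 0 in all 3 IPs against 47 in the inputs. That was 10.4-fold lower at a floor of 3 counts over the group, and the counting interval began at 8.15-fold. miR-20b-5p held 23, 36 and 23 reads in the WT inputs and 20, 29 and 15 in the IPs, and its log2 ratio was 0.58 ± 0.43, 0.78 ± 0.47 and −0.12 ± 0.53 in WT, on day 3 and on day 6. None of the 3 passed the test (edgeR adjusted p = 0.243, 0.142 and 0.847), though this depended on the setting. The WT and day 3 values passed with upper-quartile factors, at 1.29 and 1.42 (edgeR adjusted p = 0.00949 and 0.00866). With RLE factors the day 3 value passed at 1.02 (edgeR adjusted p = 0.0499). Both also passed without single inputs, at up to 1.31 and 1.34, and the day 6 sign turned in 8 settings.

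**Figure D2:**
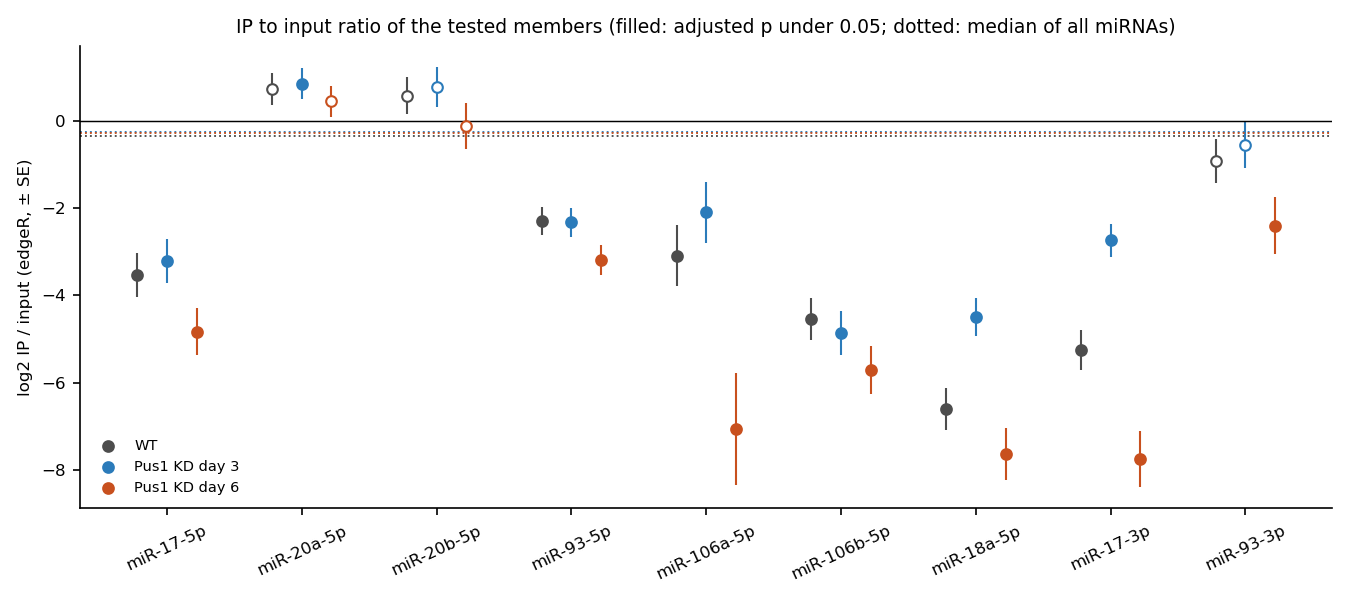
Log2 ratio of IP to input (y axis, edgeR estimate with SE bars, 3 libraries per group) for the 9 tested members (x axis) in WT, Pus1 KD day 3 and Pus1 KD day 6 cells. Filled points passed an adjusted p of 0.05, and dotted lines mark the median of all miRNAs at −0.35, −0.25 and −0.28. miR-20a-5p and miR-20b-5p sit around or above 0 and the other 5p members between −2.09 and −7.63. The sign of the day 6 values of miR-20a-5p and miR-20b-5p and of the day 3 value of miR-93-3p turned under other settings.

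Ratios between members within a library do not depend on scaling. The ratio of miR-20a-5p to miR-17-5p reads was 3.604, 3.611 and 3.636 in the WT inputs and 51.7 to 90.6 in the WT IPs. It was 3.68 to 4.12 in the day 3 inputs and 56.4 to 94.7 in the IPs, and 2.49 to 4.43 in the day 6 inputs and 82.7 to 135.5 in the IPs. The ranges of the 9 inputs and the 9 IPs were far apart, with medians of 3.64 and 82.7. The ratio was thus 19.4-fold higher in IP than in input in WT, 17.9-fold on day 3 and 35.9-fold on day 6, as geometric means. This pair was chosen for its difference, so no test is given. miR-20a-5p to miR-93-5p rose from a median of 1.49 in the inputs to 14.04 in the IPs, and miR-20a-5p to miR-106b-5p from 9.27 to 411, again with no overlap.

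**Figure D3:**
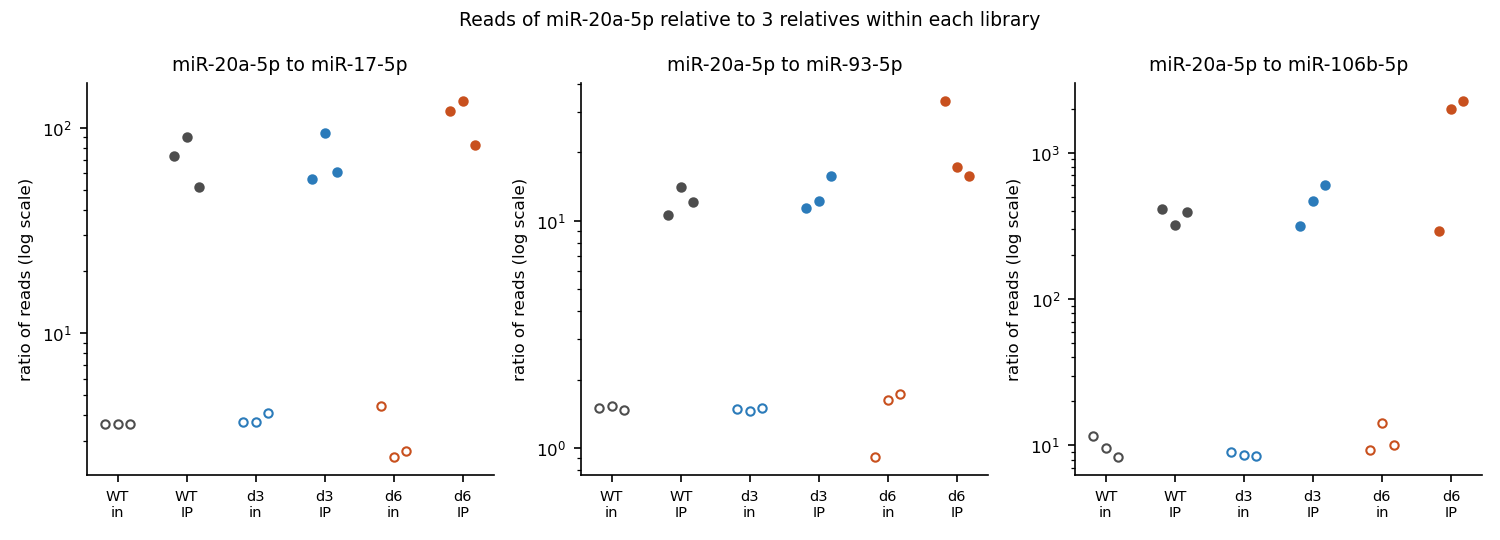
Reads of miR-20a-5p divided by those of miR-17-5p, miR-93-5p and miR-106b-5p in the same library (y axes, log scale) in the 6 groups (x axis), with open circles for inputs and filled circles for IPs. Each point is 1 library. All 9 IPs lie above all 9 inputs in each panel, with medians of 82.7 against 3.64 for miR-17-5p.

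The make-up of the family changed accordingly while its total share of reads did not move beyond the spread in WT. miR-20a-5p made up 48.7% ± 0.624 (SD, n = 3) of the reads of the 6 members in the WT input and 90.7% ± 1.08 in the WT IP. miR-93-5p went from 32.6% ± 0.397 to 7.51% ± 0.972, miR-17-5p from 13.5% ± 0.235 to 1.33% ± 0.379 and miR-106b-5p from 5.06% ± 0.767 to 0.244% ± 0.0354. The IPs of day 3 and day 6 had 91.2% ± 1.14 and 94.2% ± 1.62 miR-20a-5p. As a whole the family took 0.257% ± 0.00600 of reads in the WT input, against 0.258% ± 0.0294 after IP, 0.181% ± 0.00454 and 0.187% ± 0.0746 on day 3, and 0.335% ± 0.214 and 0.165% ± 0.0480 on day 6. The wide spread of the day 6 input runs from 0.110% in the shallow replicate A to 0.538%.

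**Figure D4:**
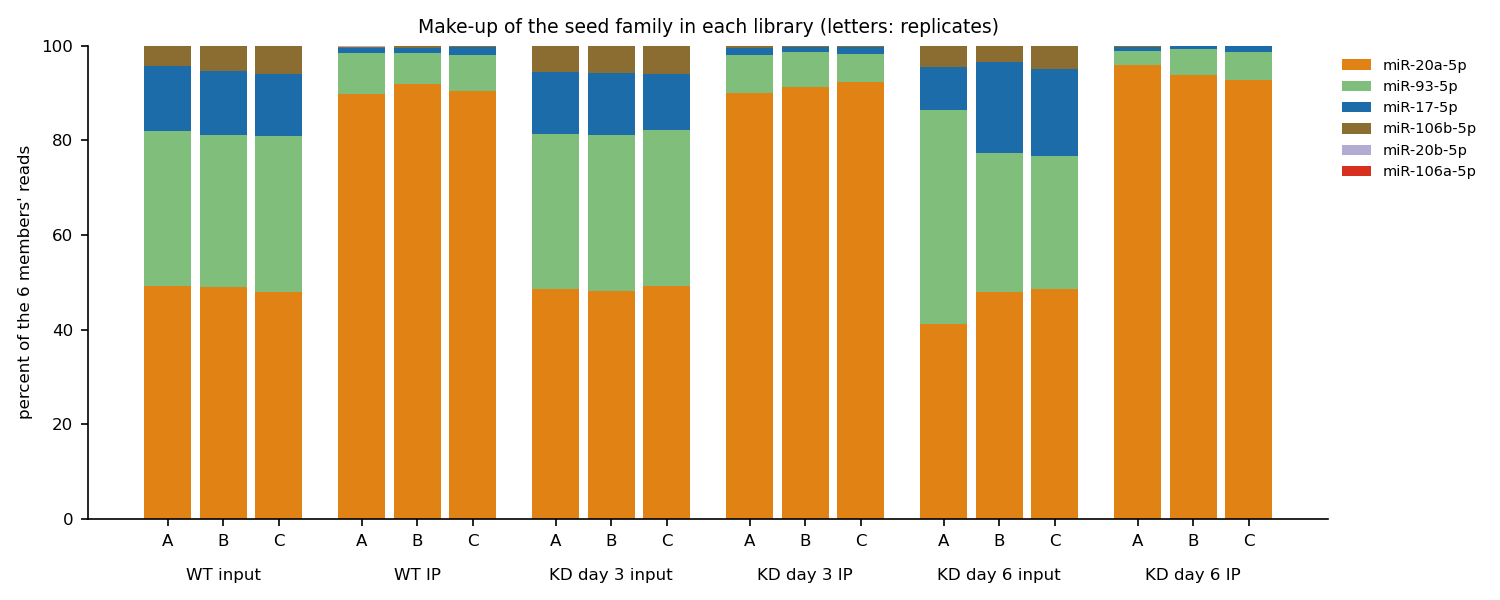
Share of each of the 6 seed-family members in their summed reads (y axis, percent) in each of the 18 libraries (x axis, replicates A to C by group). miR-20a-5p takes 41.1% to 49.2% in the inputs and 89.9% to 95.9% in the IPs, and miR-93-5p and miR-17-5p shrink.

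The 5p and 3p strands of a hairpin can be compared within a library. The 3p share of reads was tested for the 3 hairpins with both strands among the members, by a two-sided exact permutation test with IP and input labels permuted within condition (8000 assignments, 9 libraries per side, 3 tests). For miR-93, the 3p share was 1.36% ± 0.104 in the WT input and 3.43% ± 1.44 in the WT IP, and the mean over conditions rose from 1.03% to 3.09%, a difference of 2.06 points (exact permutation p = 0.00725, Benjamini-Hochberg adjusted 0.0109). It was higher in the IP on average in all 3 conditions, by 2.07, 2.47 and 1.64 points. On day 3 the IPs, at 1.29% to 5.88%, overlapped the inputs, at 0.765% to 1.54%. On day 6 the IPs were at 5.45% (9 reads of the 3p strand), 0% and 1.32%. The day 6 inputs were at 0% in the shallow replicate A, 0.997% and 0.858%. For miR-20a, the 3p share fell from 0.0793% to 0.00426%, by 0.075 points (exact permutation p = 0.00175, adjusted 0.00525), on 0 to 27 reads of the 3p strand per library.

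For miR-17 the difference of 3.30 points, from 7.80% in input to 4.50% in IP, did not pass (exact permutation p = 0.376). In WT the share was 4.54% to 7.29% in the inputs and 0.756% to 3.14% in the IPs, which did not overlap. On day 3 it was 6.55% to 7.71% and 6.51% to 17.7%. On day 6 the shallow input had 25.8%, from 8 of 31 reads, and the other inputs 2.69% and 3.29%. Without replicate B of the day 3 IP (8.5 of 48 reads) the difference was −4.46 points and passed (exact permutation p = 0.007).

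The 2 further hairpins with a member on the 5p strand, whose 3p strands are not members, are given as a description. The 3p share of miR-18a was 17.6% ± 0.692 in the WT input and 97.2% ± 1.07 in the WT IP, and that of miR-106b ran from 78.8% to 85.05% in the WT inputs and from 97.9% to 98.9% in the WT IPs. miR-18a-3p had a log2 IP to input ratio of 0.67 ± 0.36 in WT (edgeR adjusted p = 0.112) where miR-18a-5p had −6.60, and miR-106b-3p one of −0.73 ± 0.22 (adjusted p = 0.00557) where miR-106b-5p had −4.54.

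**Figure D5:**
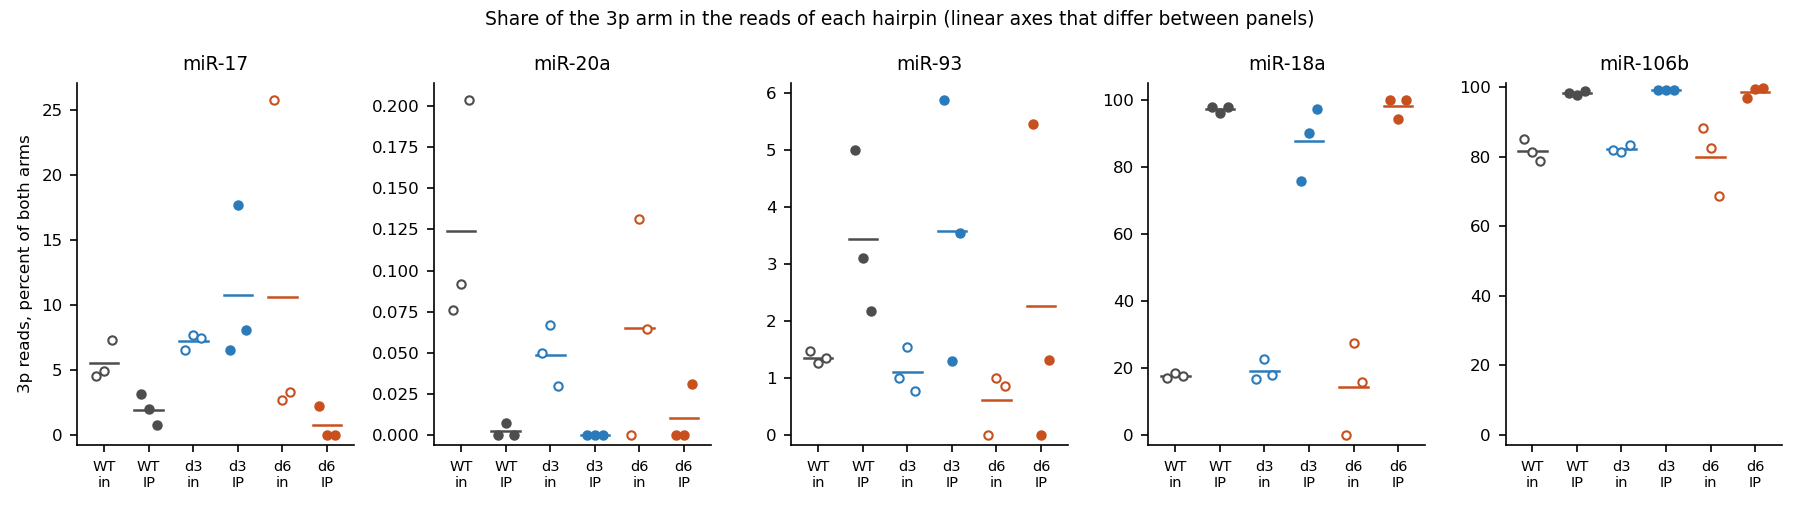
Share of 3p reads in the reads of both strands of 5 hairpins (y axes, percent, linear, with a range of its own in each panel) in the 6 groups (x axis). Open circles are inputs and filled circles IPs, in the order A, B, C, and bars are means of 3. miR-18a goes from 17.6% to 97.2% in WT, while miR-17 shows no common direction and its day 6 input mean is set by 1 shallow library at 25.8%.

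The second question was whether Pus1 knockdown changed the IP to input ratio. The day 3 and day 6 comparisons share the WT libraries, and those of day 6 share the shallow input. From WT to Pus1 KD day 3, 0 of the 9 tested members passed the edgeR test of the change, as did 0% of all miRNAs, with 2 members and 15 of all miRNAs at an unadjusted p under 0.05, and DESeq2 also called 0. Those 2 were miR-17-3p, at 2.51 ± 0.62 on the log2 scale (edgeR adjusted p = 0.298), and miR-18a-5p, at 2.12 ± 0.73 (adjusted p = 0.997). The other 7 values lay between −0.32 and 1.00.

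From WT to Pus1 KD day 6, 0 of the 9 members passed the edgeR test, against 1.12% of all miRNAs. At an unadjusted p under 0.05 there were 2 members and 110 of all 534 miRNAs, and DESeq2 called 0 members and 28 of all miRNAs. All 9 point estimates were negative, from −0.28 ± 0.51 for miR-20a-5p to −3.97 ± 1.88 for miR-106a-5p, while the median of all miRNAs was 0.26. That median depended on the scaling and was −0.39 without factors, −0.16 when the day 6 IP lacked its replicate C, and −0.56 with library sizes from all mapped reads. miR-17-5p was at −1.30 ± 0.66 (edgeR adjusted p = 0.272) and miR-93-5p at −0.89 ± 0.44 (adjusted p = 0.256). Without the shallow input, miR-17-5p was at −1.90 and passed (edgeR adjusted p = 0.0438), with 9 miRNAs called in all.

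Between day 3 and day 6, miR-17-3p was the one member called, and the one miRNA called among all 534 (0.187%). Its log2 change was −5.01 ± 0.90 (edgeR adjusted p = 0.00948), between the IP counts of 5, 8 and 23 on day 3 and 1, 0 and 0 on day 6. Other fits called more miRNAs in this comparison. DESeq2 called 18, 72.2% of them with a higher ratio on day 6, and miR-17-3p was the one member among them. The 23 reads of replicate C of the day 3 IP came from 4 distinct read sequences, as the deposited table lists them. Replicates A and B of that IP had 3.3 from 4.7 estimated reads and 2.5 from 8.5. The day 3 inputs held 25 to 31.6 distinct sequences each, from 132 to 238.4 estimated reads, so inputs and IPs are not at like depth. The call was lost without that replicate (edgeR adjusted p = 0.138) or without replicate B of the day 6 IP (adjusted p = 0.0667), while the log2 change was −4.73 and −4.77, and it was −7.60 without replicate A of the day 6 IP. At these counts the fitted size depends on the prior count. At an unadjusted p under 0.05 there were 96 of all 534 miRNAs and a further 4 members, namely miR-18a-5p at −3.15 ± 0.95, miR-106a-5p at −4.97 ± 1.81, miR-93-3p at −1.85 ± 0.84 and miR-17-5p at −1.62 ± 0.67 (edgeR adjusted p = 0.138, 0.148, 0.254 and 0.205). Without the shallow input miR-17-5p passed as well, at −2.07 (edgeR adjusted p = 0.0306), with 15 miRNAs called in all.

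Levels before the IP were compared to see whether the members' abundance moved with the knockdown. In the day 3 input, all 9 point estimates were below WT, from −0.22 ± 0.30 for miR-17-3p to −0.82 ± 0.48 for miR-93-3p on the log2 scale, and the median of all miRNAs was −0.17. None passed the edgeR test, as for 0% of all miRNAs, with miR-18a-5p and 46 of all miRNAs at an unadjusted p under 0.05, and DESeq2 called 0 members and 8 of all miRNAs. The libraries of each group lay close together, with miR-20a-5p at 1014 ± 24.9 CPM against 1468 ± 10.5 and miR-17-5p at 265 ± 13.8 against 406 ± 4.25 (SD, n = 3), without overlap. In a fit of the 6 input libraries alone, miR-17-5p (−0.47), miR-18a-5p (−0.51), miR-20a-5p (−0.39) and miR-93-5p (−0.37) passed, as did 74 miRNAs in all, so these calls depend on which libraries enter the fit. In that fit 60.8% of the 74 were higher on day 3, and these 4 members were lower.

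In the day 6 input, 0 of the 9 members passed, against 5.06% of all miRNAs, with 0 members and 98 of all miRNAs at an unadjusted p under 0.05, and 0 members and 28 of all miRNAs by DESeq2. The replicates were far apart, with miR-17-5p at 552 ± 404 CPM and miR-106b-5p at 132 ± 91.7. A read share is relative to all other miRNAs, of which miR-21a-5p alone took 295361 to 481140 RPM in the inputs, so fewer molecules of a member and more of others cannot be told apart.

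Among the 18 other strands of the 3 clusters, 8 passed the filter. In WT, 4 were lower and 2 higher in the IP, with 3 and 3 on day 3 and 3 and 2 on day 6. miR-92a-3p, of another seed family, was higher at 2.64 ± 0.27 in WT (edgeR adjusted p = 3.23e-08), and miR-19b-3p was lower at −5.38 ± 0.49 (adjusted p = 6.38e-09). They ranked 524th and 27th from the lowest of 534. Both are encoded in the miR-17~92 cluster and also outside it, so their reads cannot be assigned to one transcript. In replicate A of the WT input, the row kept for miR-19b-3p held 511 of 1019.2 estimated reads.

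Over the 18 libraries, the log2 levels most like that of miR-17-5p were those of miR-31-5p (Pearson r = 0.980), miR-15b-5p (0.966) and miR-872-5p (0.962), of 148 miRNAs outside the members with a mean of at least 100 CPM. Those most like miR-20a-5p were miR-16-5p (0.900), miR-222-3p (0.891) and miR-191-5p (0.850). These values describe libraries that share the contrast of input and IP. Against miR-17-5p, C12U was shared by miR-20a-5p (WT log2 ratio 0.73), miR-20b-5p (0.58), miR-93-5p (−2.30) and miR-18a-5p (−6.60). C1U was shared by miR-20a-5p, miR-106b-5p (−4.54) and miR-18a-5p. These values are a description, and the part of any base in the IP was not tested. Across the 462 tested miRNAs with a RefSeq sequence, the WT log2 ratio had r = 0.077 with the uridine count and 0.189 with GC content, given as a description across miRNAs of the same libraries.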

How the data were processed

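Input and Ψ-IP small RNA libraries of NIH/3T3 cells (18 libraries) were used. The authors mapped reads with SeqImp in its default mouse configuration (mm10, Ensembl 89, miRBase 21; SeqImp version not given in the sources used here) and deposited estimated counts, not normalized, per mature miRNA and precursor, with reads that match several loci apparently divided among them. A second set of deposited columns, of estimated counts of distinct read sequences, was used only for miR-17-3p. Of non-zero values, 47.0% were not whole; the estimated counts were rounded to whole numbers. Where a miRNA had several rows (78 miRNAs), the largest was kept. The row of total mapped reads was left out of tests.

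Counts were tested with edgeR 4.0.16 in R 4.3.3 (filterByExpr, TMM, glmQLFit, glmQLFTest) in one fit of 6 group means over 18 libraries, with Benjamini-Hochberg adjustment over 534 miRNAs and a threshold of 0.05. SE is that of the log2 ratio. The code was tested on simulated data. Strand shares were tested by exact permutation in Python 3.11.15 with SciPy 1.17.1 for intervals. Counting intervals are exact, at 95%, and a floor of 3 counts stands for a count of 0. Both cover counting error only, as reads carry no molecular identifiers. Alternatives were RLE and upper-quartile factors, no factors, total mapped reads, other filters, copies summed, all rows, a replicate block, only the libraries compared, DESeq2 1.42.0 and each library left out in turn. The last was also run for the miR-20a-5p to miR-17-5p ratio, an alternative chosen after seeing the data.

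Whether replicate letters pair libraries was checked on 199 miRNAs from the correlation of same-letter deviations from group means. All 3 pairs exceeded 0.1 only for the day 3 and WT inputs (0.589, 0.217 and 0.332), and IP and input pairs ran from −0.24 to 0.50. The members, lists and tests were chosen with earlier results of these data known. All members are named. Other strands of the 3 clusters are given as counts and named where a result turns on them, and the 3 nearest miRNAs by Pearson r on log2(CPM + 1) are named for miR-17-5p and miR-20a-5p.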

Additional observations from a re-analysis of the deposited data

Results flagged for a closer look

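The change in IP to input ratio of miR-17-3p between Pus1 KD day 3 and day 6, a log2 value of −5.01 (edgeR adjusted p = 0.00948), stands out because the effect differed between 2 time points by the test of the difference itself. It rests on 36 IP reads on day 3 and 1 on day 6, and its causes were not tested. It no longer passed when the day 3 IP lacked replicate C (log2 −4.73, edgeR adjusted p = 0.138) or the day 6 IP lacked replicate B (−4.77, adjusted p = 0.0667). With DESeq2 it was 1 of 18 miRNAs called in this comparison.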

How the results depend on the processing

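Of 28 named log2 ratios recomputed under up to 29 alternatives (806 values), 724 kept their direction and side of the threshold, 23 no longer passed, 43 newly passed and 16 changed sign. The signs that turned were of values that had not passed. For miR-20a-5p on day 6 they were −0.39 with total mapped reads, −0.017 with no filter, and −0.18 to 1.36 over left-out libraries. For miR-20b-5p on day 6 they were 0.25 with RLE factors, 0.69 with upper-quartile factors, 0.24 with DESeq2, and −1.01 to 0.85 over left-out libraries. For miR-93-3p on day 3 they were 0.11 with upper-quartile factors and −1.02 to 0.0044 over left-out libraries. Leaving out each library gave 7 to 9 members called in the WT IP (343 to 388 miRNAs called in all), 6 to 8 on day 3 (342 to 398) and 7 to 8 on day 6 (355 to 398). miR-20a-3p passed the filter without the shallow input, so these counts are not all out of the 9 members tested in the main fit. For the change from WT to day 6, 1 member passed with total mapped reads (51 miRNAs called in all), 2 with no filter (13), and 0 to 1 over left-out libraries. The fits with 1 were those without the shallow input (9 miRNAs called in all) and without replicate C of the day 6 IP (25). From day 3 to day 6, 2 passed without factors (13 miRNAs called in all), 3 with no filter (22), and 0 to 3 over left-out libraries. The fit with 3 was that without replicate C of the day 6 IP, where 48 miRNAs were called in all. For the day 3 against WT input, 4 passed with only the libraries compared (74 miRNAs called in all). The miR-17 3p difference ran from −4.62 to −0.77 points over left-out libraries. The cause of these shifts was not tested. With the replicate block the counts were 6, 7 and 7 members for the IPs, 0, 0 and 1 for the changes and 0 for both inputs, and paired differences gave exact permutation p = 0.340, 0.00781 and 0.0313 for the 3p shares of miR-17, miR-20a and miR-93, so the block changed no call. The shallow day 6 input limits every day 6 value.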
